A study of Mus musculus with 18 samples.

Results

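Parvalbumin (Pvalb), calbindin (Calb1), calretinin (Calb2) and hippocalcin (Hpca) are the 4 calcium-binding protein genes described here, in a spared and an affected motor region of an amyotrophic lateral sclerosis (ALS) mouse model. The members are all probe sets whose single gene symbol in the array's annotation is one of these names, which gave 4 of 12393 named genes and 6 of 22626 probe sets. Pvalb (1417653_at) and Calb2 (1451129_at) had 1 each. Calb1 had 2, called Calb1 A (1417504_at) and Calb1 B (1448738_at) here, and Hpca had 2, called Hpca A (1450930_at) and Hpca B (1425833_a_at), with A the one of higher mean signal. Oculomotor nucleus (OMN), which drives the eye muscles and is spared in ALS, was set against cervical spinal cord, which is affected. Both regions came from mutant mice of 10 weeks, mutant mice of 6 weeks and control mice of 10 weeks, which makes 6 groups of 3 arrays. All samples, controls included, are labelled with the words ALS model, and the mutation, the strain, the sex and any pooling of animals are not given. Mutants of 6 weeks had no controls of their own age. Control spinal cord replicate 1 was left out, so that group held 2 arrays and 17 were used.

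All 4 proteins bind calcium through EF-hands, a helix-loop-helix fold that holds the ion. Parvalbumin, calbindin and calretinin act mainly as buffers: they take up calcium that enters a neuron during activity and so shape the size and decay of the signal. Parvalbumin binds calcium slowly and is known from fast-spiking GABA neurons and from skeletal muscle, calbindin is a fast buffer abundant in cerebellar Purkinje cells, and calretinin is a fast buffer of other GABA neurons and of some glutamate neurons. Hippocalcin is a sensor rather than a buffer. On binding calcium it exposes a fatty acid tail, moves to membranes and acts on channels and enzymes there. Eye-muscle motor neurons are known to contain more calcium-buffering protein than most spinal motor neurons, which is why these genes are of interest in ALS.

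Values are signals from the MAS5 software, with the authors' scaling per array, and levels are compared between arrays for the same probe set only. Differences are log2 fold changes of signal + 25 with their standard error (SE), and "called" means a limma adjusted p under 0.05 over 13575 probe sets. Of the 6 member probe sets, 5 passed the filter on low signals, among them at least 1 for each gene, while Calb1 B fell below it and is given by values without a test. That filter used the mean over all 17 arrays. The correlation between the arrays used ran from 0.957 to 0.985 across probe sets, against 0.0104 to 0.0143 between these and the array left out. In the tissue check, summed signals of 7 motor neuron markers ran from 1063 to 1375 in OMN arrays and from 2981 to 3618 in spinal cord arrays, while sums of 6 dopamine neuron markers ran from 6083 to 8122 in OMN arrays and from 897 to 1185 in spinal cord arrays. Of the 5 motor neuron markers tested, 4 were called lower in OMN by mean over conditions, and Ret was not called (-0.005 ± 0.08). Dopamine neurons lie near the nucleus but are no part of it. In such bulk samples, fewer cells of a type and less RNA per cell cannot be told apart. Nothing in the labels says that arrays of a group came from separate animals, so the spread behind each p-value is that between these arrays and may be technical, and precision is limited by how few they are.

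**Figure D1:**
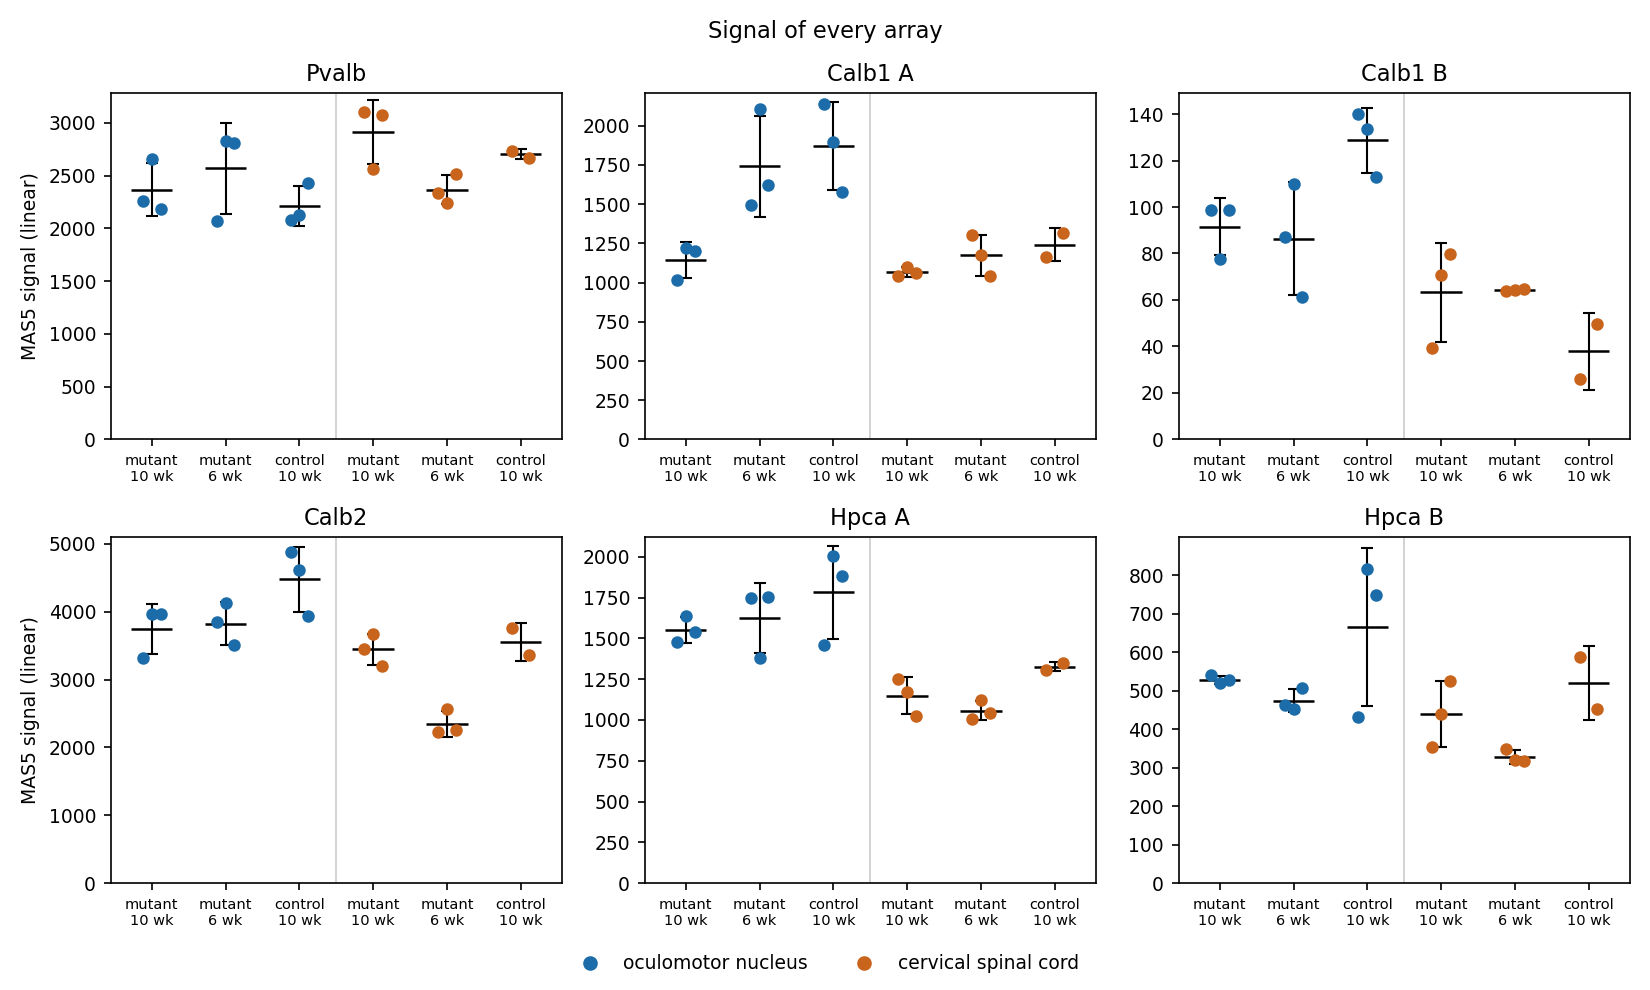
Signal (MAS5, linear scale from 0) of each array for the 6 member probe sets; points are arrays, horizontal bars group means and vertical bars the SD. Calb1 A in OMN of 10-week mutants (1014.9 to 1221.8) lies below OMN of 6-week mutants and of controls, and Calb2 in spinal cord of 6-week mutants (2220.6 to 2563.9) lies below all other groups.

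Between the regions, Calb1, Calb2 and Hpca were higher in OMN and Pvalb was not. Averaged over the 3 conditions, 4 of the 5 tested member probe sets were called higher in OMN and 0 lower, where 20% of all tested probe sets were called higher and 17.7% lower. The differences were 0.41 ± 0.08 for Calb1 A (SE, adjusted p = 0.000446), 0.38 ± 0.06 for Calb2 (adjusted p = 7.29e-05), 0.36 ± 0.11 for Hpca B (adjusted p = 0.0138) and 0.48 ± 0.07 for Hpca A (adjusted p = 3.28e-05). All 4 are fold changes between 1.28 and 1.39. Pvalb had -0.16 ± 0.07, with an adjusted p of 0.0829. It passed the threshold on the lower side without the pair of OMN arrays rich in pituitary hormone RNA (-0.21, adjusted p = 0.0333), without OMN of 10-week mutants replicate 2, 1 of that pair, alone (-0.19, adjusted p = 0.0476), or without spinal cord of 10-week mutants replicate 2 (-0.19, adjusted p = 0.0440). The median over the 5 was 0.38, beside 0.02 over all tested probe sets.

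Parvalbumin was not called between the regions in any condition, but in 10-week mutants it lay close to the threshold. Its signals were 2258.1, 2656.6 and 2188.8 in OMN and 3108.0, 2565.8 and 3073.7 in spinal cord of 10-week mutants. In 6-week mutants they were 2068.3, 2824.8 and 2812.4 in OMN and 2340.9, 2242.8 and 2514.6 in spinal cord. Controls had 2077.8, 2126.8 and 2431.0 in OMN and 2735.6 and 2669.6 in spinal cord. The regions overlapped in both mutant ages, and in controls every OMN array lay below both spinal cord arrays. The OMN minus spinal cord difference was -0.30 ± 0.12 in 10-week mutants (adjusted p = 0.0866), 0.10 ± 0.12 in 6-week mutants (adjusted p = 0.566) and -0.29 ± 0.13 in controls (adjusted p = 0.165). In 10-week mutants it was called lower in OMN with quantile normalization (-0.33, adjusted p = 0.0443), without spinal cord replicate 2 of that age (-0.39, adjusted p = 0.0468), or without OMN of 6-week mutants replicate 1 (-0.30, adjusted p = 0.0378). The 95% intervals were -0.55 to -0.05 in 10-week mutants, -0.14 to 0.35 in 6-week mutants and -0.57 to -0.01 in controls. From highest to lowest mean the groups ran from spinal cord of 10-week mutants (2916 ± 304, SD) to OMN of controls (2212 ± 191), and each group overlapped its neighbour in that order. Muscle is a known source of Pvalb RNA, and the summed signal of 9 skeletal muscle markers was 281 to 418 on OMN arrays other than 1 control at 2068, and 388 to 1627 on spinal cord arrays. Its part in the Pvalb values was not tested.

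For calbindin, the regional difference was called in 6-week mutants and in controls. Calb1 A measured 1014.9, 1221.8 and 1204.4 in OMN and 1042.6, 1100.9 and 1058.9 in spinal cord of 10-week mutants. In 6-week mutants it measured 1497.6, 2106.8 and 1623.6 in OMN and 1304.9, 1178.7 and 1041.1 in spinal cord. In controls it measured 2136.6, 1893.5 and 1579.6 in OMN and 1166.3 and 1317.4 in spinal cord. All OMN arrays of 6-week mutants and of controls lay above all spinal cord arrays of the same condition, while those of 10-week mutants overlapped spinal cord. The OMN minus spinal cord difference was 0.10 ± 0.13 in 10-week mutants (adjusted p = 0.650), 0.55 ± 0.13 in 6-week mutants (adjusted p = 0.00487, 1.46-fold) and 0.57 ± 0.15 in controls (adjusted p = 0.0124, 1.49-fold). The control value lost its call without OMN control replicate 1 (0.47, adjusted p = 0.0626) or spinal cord control replicate 2 (0.49, adjusted p = 0.154). OMN of 6-week mutants replicate 2 had the highest Calb1 of its group and also stood apart in Purkinje cell markers, with Pcp2 at 421.8 against 106.0 and 186.5 on the other arrays of the group and Car8 at 486.6 against 226.2 and 257.0. Without it the 6-week difference was 0.41 (adjusted p = 0.0361). In their sum, Purkinje cell markers differed between the regions as well. Their sum over Pcp2, Car8 and Cbln1 was 1069 to 1521 in OMN and 1003 to 1037 in spinal cord of 10-week mutants, 1483 to 2558 in OMN and 945 to 1064 in spinal cord of 6-week mutants, and 1464 to 1884 in OMN and 896 to 1210 in spinal cord of controls. Cbln1 was called higher in OMN in the same conditions as Calb1 A, by 0.63 in 6-week mutants and 0.69 in controls, with 0.17 (adjusted p = 0.460) in 10-week mutants, and Car8 was called higher in all 3 conditions, by 0.90 in 10-week mutants, 1.08 in 6-week mutants and 0.83 in controls. Pcp2, under the filter, overlapped between the regions in 10-week mutants (67.6 to 74.6 in OMN, 43.9 to 102.7 in spinal cord). It also overlapped in controls (64.0 to 107.3 in OMN, 29.0 and 115.1 in spinal cord). In 6-week mutants all its OMN arrays lay above its spinal cord arrays, which read 36.7 to 59.4. The part of these markers in the Calb1 difference was not tested.

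The second calbindin probe set had low signals, under the filter. Calb1 B read 98.6, 77.5 and 98.7 in OMN and 39.3, 70.8 and 79.6 in spinal cord of 10-week mutants, 87.2, 110.1 and 61.5 in OMN and 63.9, 64.2 and 64.6 in spinal cord of 6-week mutants, and 139.8, 133.4 and 112.9 in OMN and 26.1 and 49.7 in spinal cord of controls. As with the other probe set, control OMN arrays lay above control spinal cord arrays, and OMN of controls had the highest mean of the 6 groups. Unlike it, the arrays of OMN and spinal cord overlapped in 6-week mutants.

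For calretinin, the regional difference was called in 6-week mutants. Calb2 signals were 3322.0, 3963.3 and 3962.0 in OMN and 3455.6, 3670.7 and 3200.8 in spinal cord of 10-week mutants. In 6-week mutants they were 3848.1, 4123.3 and 3501.9 in OMN and 2220.6, 2563.9 and 2260.1 in spinal cord. Controls had 4872.5, 4613.0 and 3939.7 in OMN and 3756.9 and 3357.1 in spinal cord. OMN arrays lay above spinal cord arrays in 6-week mutants and in controls and overlapped them in 10-week mutants. The difference was 0.12 ± 0.10 in 10-week mutants (adjusted p = 0.449), 0.70 ± 0.10 in 6-week mutants (adjusted p = 7.35e-05, 1.62-fold) and 0.33 ± 0.11 in controls (adjusted p = 0.0687). The control value passed the threshold in 1 of 17 omissions of 1 array (adjusted p = 0.0289) and in some other settings (lowest adjusted p = 0.0244). By mean signal, the 3 OMN groups ranked above the 3 spinal cord groups, and the sole break between neighbours without overlap was below spinal cord of 10-week mutants, where spinal cord of 6-week mutants stood lowest.

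For hippocalcin, both probe sets had higher means in OMN in every condition. Hpca A gave 1479.7, 1638.1 and 1536.8 in OMN and 1252.7, 1172.2 and 1025.3 in spinal cord of 10-week mutants. In 6-week mutants it gave 1748.0, 1377.9 and 1752.2 in OMN and 1008.5, 1123.4 and 1041.6 in spinal cord. In controls it gave 1460.3, 2002.7 and 1882.9 in OMN and 1307.7 and 1347.7 in spinal cord. The lowest of the 9 OMN arrays, 1377.9, lay above the highest of the 8 spinal cord arrays, 1347.7. How many of all tested probe sets separate in this way was not counted. Within single conditions, 36% to 46% of them did not overlap between the regions, in either direction. The difference was 0.43 ± 0.12 in 10-week mutants (adjusted p = 0.0168), 0.60 ± 0.12 in 6-week mutants (adjusted p = 0.00121) and 0.41 ± 0.13 in controls (adjusted p = 0.0511). The control value passed the threshold in 5 of 17 omissions of 1 array (lowest adjusted p = 0.0112). It also passed in some other settings (lowest adjusted p = 0.0417). The call in 10-week mutants was lost without OMN replicate 2 (0.39, adjusted p = 0.0634), an array with high pituitary hormone signals, or without spinal cord replicate 3 (0.35, adjusted p = 0.0745) of that age.

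The other hippocalcin probe set was more scattered. Hpca B read 539.4, 518.5 and 526.9 in OMN and 353.2, 439.6 and 525.5 in spinal cord of 10-week mutants, and 462.3, 451.1 and 506.8 in OMN and 348.1, 319.1 and 316.2 in spinal cord of 6-week mutants. Controls had 430.8, 814.6 and 749.4 in OMN and 587.6 and 452.0 in spinal cord. Regions were apart in 6-week mutants and overlapped in the other conditions. OMN control replicate 1 was the lowest array of its group for both Hpca probe sets. The differences were 0.27 ± 0.18 in 10-week mutants (adjusted p = 0.319), 0.50 ± 0.18 in 6-week mutants (adjusted p = 0.0515) and 0.30 ± 0.20 in controls (adjusted p = 0.361). The 6-week difference passed the threshold with a replicate block (adjusted p = 0.0436), a 60% filter (0.0484), signals floored at 25 (0.0488) or the groups of that comparison alone (0.0145). The called mean over conditions was lost without spinal cord control replicate 3 (0.30, adjusted p = 0.0645).

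**Figure D2:**
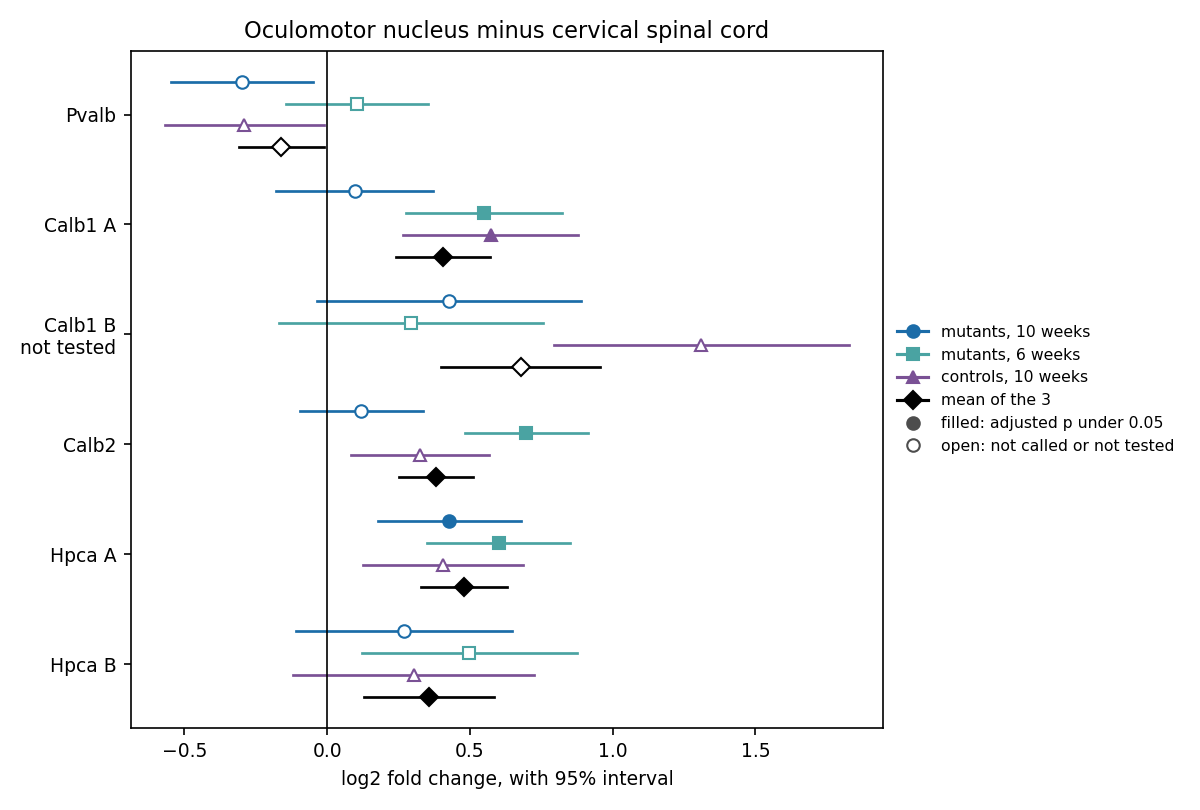
OMN minus spinal cord difference (log2 fold change) of each member probe set in 10-week mutants, 6-week mutants, 10-week controls and their mean; lines are 95% intervals and filled symbols are called. Calb1 A is 0.55 in 6-week mutants and 0.57 in controls beside 0.10 in 10-week mutants, and Calb2 is 0.70 in 6-week mutants.

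By condition, 1 of 5 tested member probe sets was called higher in OMN of 10-week mutants (Hpca A), beside calls for 9.3% of all tested probe sets on the higher side and 9.99% on the lower side. In 6-week mutants 3 of 5 were called higher (Calb1 A, Calb2 and Hpca A), where 12.2% of all were, and 11.7% lower. In controls 1 of 5 was called higher (Calb1 A), where 6.62% of all were, and 6.94% lower. No member was called lower in any condition. Regions did not overlap for 1 of the 6 member probe sets in 10-week mutants, 4 in 6-week mutants and 5 in controls, against 36%, 37.4% and 46% of all tested probe sets. Medians over the 5 tested member probe sets were 0.12 in 10-week mutants, 0.55 in 6-week mutants and 0.33 in controls. Over all tested probe sets they were 0.00076, 0.03 and 0.01. GABA and glycine neurons often hold these buffers, and of 5 tested markers of such neurons 2 were called higher and 2 lower in OMN by mean over conditions (median -0.13). The GABA synthesis genes Gad1 (0.81 ± 0.07) and Gad2 (1.47 ± 0.09) were the higher ones, and the neuropeptide genes Npy (-1.03 ± 0.10) and Sst (-0.39 ± 0.07) the lower ones. In 6-week mutants 2 were called higher and 3 lower, the third being the vesicular transporter gene Slc32a1 (-0.25). The sum of 6 GABA and glycine neuron markers ran from 7421 to 9206 on OMN arrays and from 6416 to 7596 on spinal cord arrays. Of forebrain pyramidal neuron markers 2 were tested, Neurod2 (1.06 ± 0.23) and Nrgn (0.40 ± 0.11). Each was called higher in OMN by mean over conditions and in no single condition. The sum of 4 such markers ran from 521.9 to 866.1 on OMN arrays and from 366.5 to 577.6 on spinal cord arrays. The part of these cells in the members' differences, those of Hpca included, was not tested.

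The comparison of mutants with controls at 10 weeks asks what the disease model changed. In OMN, the calbindin signal fell. Calb1 A averaged 1147 ± 115 in mutants and 1870 ± 279 in controls (SD, n = 3 each). The change was -0.69 ± 0.13 (SE, adjusted p = 0.0117), so that the signal plus offset fell by 37.9%. All 3 mutant arrays lay below all 3 control arrays, as they did for 12.3% of all tested probe sets. It was the 1 of 5 tested member probe sets called in OMN, where 0.435% of all tested probe sets were called lower. Its size was at the 98.8th percentile of absolute changes over all tested probe sets. Calb1 B, untested, averaged 91.6 ± 12.2 in mutants and 128.7 ± 14.1 in controls (SD, n = 3 each), again with every mutant array below every control array. Both Calb1 probe sets were designed from the same sequence record, so they are not independent of each other. The call rests on few arrays: it was lost without OMN mutant replicate 1 (-0.60, adjusted p = 0.0887) or OMN control replicate 1 (-0.59, adjusted p = 0.0775).

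Markers of other cells also differed in OMN between mutants and controls. Purkinje cells are rich in calbindin, and the summed signal of 3 Purkinje cell markers (Pcp2, Car8 and Cbln1) was 1069 to 1521 in OMN of 10-week mutants and 1464 to 1884 in OMN of controls. Among them was Cbln1, a synapse organiser that is also made outside the cerebellum, with 860.1, 823.1 and 1201.4 in mutants and 1481.1, 1539.8 and 1191.4 in controls (-0.55 ± 0.15, adjusted p = 0.0786). Pcp2, which is close to specific for Purkinje cells, had 67.6 to 74.6 in mutants and 64.0 to 107.3 in controls, and Car8 had a difference of -0.04 ± 0.22 (adjusted p = 0.959). None of these markers was at 0. The sum of 5 oligodendrocyte markers was 37045 to 41532 in mutants and 27818 to 30251 in controls. Cnp, 1 of these markers, was called (0.52, adjusted p = 0.0384). The others were not called, with Mbp at 0.53 (adjusted p = 0.0550), Mobp at 0.30, Mag at 0.15 and Mog at -0.00078. The sum of 2 serotonin neuron markers was 5884 to 7614 in mutants and 4003 to 4493 in controls. The serotonin transporter gene Slc6a4 was called (0.82, adjusted p = 0.0212) and the other marker, Ddc, was not (0.50, adjusted p = 0.106). The sum of 5 microglia markers was 3372 to 3632 in mutants and 3075 to 3152 in controls, and the chemokine receptor gene Cx3cr1 was called (1.02, adjusted p = 0.00327). The other tested microglia markers were not called and differed in direction, with Csf1r at 0.11, C1qa at -0.15 and Tyrobp at -0.23. For 6 GABA and glycine neuron markers the sum was 8970 to 9206 in mutants and 7864 to 8792 in controls. Of the 5 of these tested, none was called. Gad1 had 0.26, Slc32a1 0.15, Sst 0.12 and Gad2 0.04, while Npy had -0.63 (adjusted p = 0.0769). The oligodendrocyte, serotonin, microglia and GABA sums did not overlap between mutants and controls, while the Purkinje sums did. The part of these cells in the Calb1 change was not tested.

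**Figure D3:**
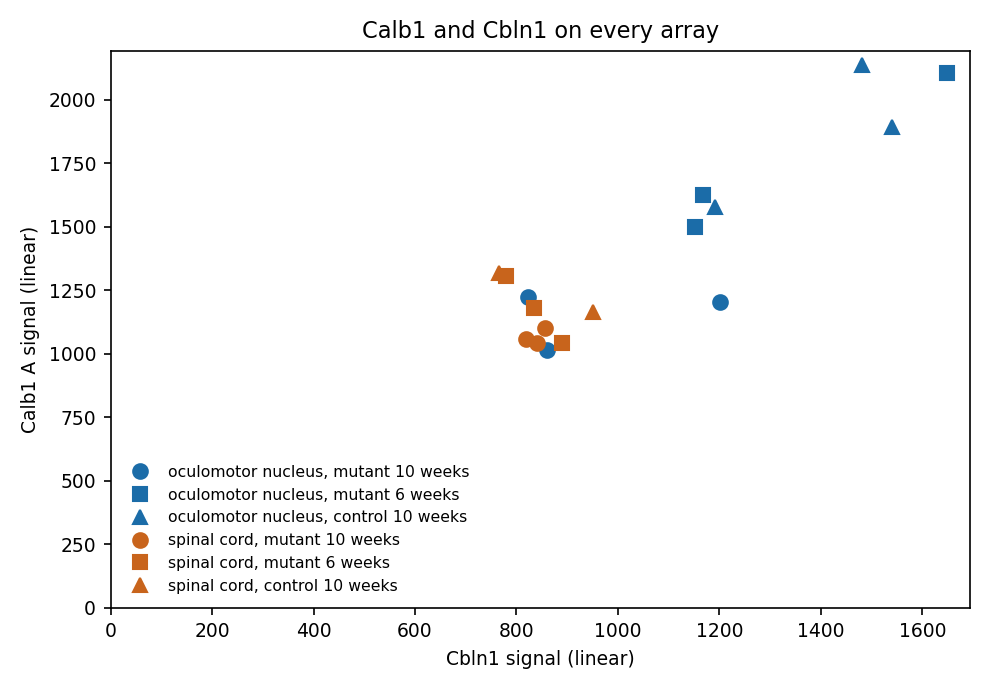
Calb1 A signal against Cbln1 signal on each of the 17 arrays (both MAS5, linear axes from 0). For Calb1, 2 of the 3 OMN arrays of 10-week mutants lie within the range of the spinal cord arrays (1041.1 to 1317.4) and the third, at 1014.9, below it, and the array with the highest Cbln1 (1649.3, OMN of 6-week mutants) is also high in Calb1 (2106.8).

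The other members had no called genotype change in OMN. Calb2 had -0.25 ± 0.10 (adjusted p = 0.238, unadjusted p = 0.0238), with mutants at 3749 ± 370 and controls at 4475 ± 481 (SD, n = 3 each) and 2 of the 3 mutant arrays above the lowest control array. Hpca had -0.27 ± 0.18 and -0.19 ± 0.12, and Pvalb had 0.10 ± 0.12. The 95% interval of the Pvalb difference was -0.15 to 0.34. The members' median was -0.25, beside -0.01 over all tested probe sets.

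In spinal cord no member was called between mutants and controls. With limma, 0 of 5 tested member probe sets were called and 0 had an unadjusted p under 0.05, beside 0.0221% and 11.7% of all tested probe sets. The differences were 0.10 ± 0.13 for Pvalb, -0.21 ± 0.15 for Calb1 A, -0.05 ± 0.11 for Calb2, -0.24 ± 0.20 for Hpca B and -0.21 ± 0.13 for Hpca A. Calb1 B, untested and low in signal, went the other way from Calb1 A, with 0.48 ± 0.24 and overlapping arrays. The 3 mutant arrays lay below both control arrays for Calb1 A and Hpca A, a separation in this direction that 13.3% of all tested probe sets showed. The median over the 5 tested was -0.21, beside 0.00108 over all. The change of Calb1 A in OMN minus that in spinal cord was -0.48 ± 0.20 (unadjusted p = 0.0260, adjusted p = 0.747), so a difference between the regions in the genotype change was not established. In that comparison 0 of 5 tested members were called, 1 had an unadjusted p under 0.05, and 0% of all tested probe sets were called, with 835 of 13575 under 0.05 before adjustment. The members' median was -0.03, beside -0.01 over all.

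Between 6 and 10 weeks, calretinin rose in mutant spinal cord. Calb2 averaged 3442 ± 235 at 10 weeks and 2348 ± 188 at 6 weeks (SD, n = 3 each), a change of 0.55 ± 0.10 (SE, adjusted p = 0.0114, 46.2% higher). All 3 arrays of 10 weeks lay above all 3 of 6 weeks. It was the 1 of 5 tested member probe sets called in mutant spinal cord, where 1.78% of all tested probe sets were called higher. With no control of 6 weeks, a change with age in mutants and one of normal growth cannot be told apart. The control spinal cord of 10 weeks, 3756.9 and 3357.1, lay at the level of mutants of that age. When the spread was estimated from the 6 arrays of this comparison alone, the adjusted p was 0.0533.

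The other members in mutant spinal cord were not called. Pvalb had 0.29 ± 0.12 (adjusted p = 0.177) and Hpca B 0.38 ± 0.18 (adjusted p = 0.243), each with every 10-week array above every 6-week array, a separation in this direction that 13.4% of all tested probe sets showed. Calb1 A had -0.13 ± 0.13 and Hpca A 0.11 ± 0.12. The median was 0.29, beside 0.02 over all. Beside the Calb2 change, the sum of 5 oligodendrocyte markers was 43926 to 59643 at 10 weeks and 43107 to 47863 at 6 weeks, that of 5 microglia markers 5341 to 6654 at 10 weeks and 4881 to 5277 at 6 weeks, and that of 6 GABA and glycine neuron markers 6631 to 7292 at 10 weeks and 6416 to 7596 at 6 weeks. The sum of 3 sensory ganglion markers, cells of which a fraction makes calretinin, was low at both ages, 57.1 to 182 at 10 weeks and 35.9 to 47.4 at 6 weeks. The part of these cells in the Calb2 change was not tested.

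In mutant OMN, no member was called between the ages. Calb1 A averaged 1147 ± 115 at 10 weeks and 1743 ± 322 at 6 weeks (SD, n = 3 each), with all 10-week arrays below all 6-week arrays and a difference of -0.58 ± 0.13 (unadjusted p = 0.000296, adjusted p = 0.112). This comparison uses the same 10-week mutant arrays as the genotype comparison, so both values rest on the same arrays. Beside it, the sum of 2 serotonin neuron markers was 5884 to 7614 at 10 weeks and 2896 to 4435 at 6 weeks. Slc6a4 was called higher (1.26, adjusted p = 0.0118) and Ddc was not called (0.63, adjusted p = 0.151). The sum of 5 oligodendrocyte markers was 37045 to 41532 at 10 weeks and 49419 to 50879 at 6 weeks, and that of 6 GABA and glycine neuron markers 8970 to 9206 at 10 weeks and 7421 to 8229 at 6 weeks, all without overlap. No GABA and glycine neuron marker was called: Slc32a1 had 0.36, Gad2 0.31, Gad1 0.21 and Sst 0.11, while Npy had -0.39. The 3 Purkinje cell markers summed to 1069 to 1521 at 10 weeks and 1483 to 2558 at 6 weeks, with overlap. Among them Pcp2 did not overlap, with 67.6 to 74.6 at 10 weeks and 106.0, 421.8 and 186.5 at 6 weeks. Cbln1 (-0.45 ± 0.15, adjusted p = 0.354) and Car8 (-0.38 ± 0.22, adjusted p = 0.642) were not called. The part of these cells in the Calb1 difference was not tested. Calb1 B did not share the pattern, with 77.5 to 98.7 at 10 weeks and 61.5 to 110.1 at 6 weeks. In limma 0 of 5 tested members were called and 1 had an unadjusted p under 0.05, beside 0.0221% and 8.82% of all tested probe sets. Pvalb (-0.11 ± 0.12), Calb2 (-0.03 ± 0.10) and Hpca (0.15 ± 0.18 and -0.06 ± 0.12) had smaller differences. Of the 6 member probe sets, Calb1 A and Hpca B did not overlap between the ages, Hpca B with its 10-week arrays on the higher side, against 14.2% of all tested probe sets in either direction. The members' median was -0.06, beside 0.00098 over all.

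The change with age in OMN minus that in spinal cord was -0.58 ± 0.15 for Calb2 (unadjusted p = 0.000847, adjusted p = 0.0854), -0.45 ± 0.19 for Calb1 A (adjusted p = 0.238) and -0.40 ± 0.17 for Pvalb (adjusted p = 0.243). In limma 0 of 5 tested members were called and 3 had an unadjusted p under 0.05. Of all tested probe sets, 0.368% were called and 16.1% had an unadjusted p under 0.05. A difference between the regions in the change with age was therefore not established for any member. The median was -0.40, beside -0.01 over all.

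**Figure D4:**
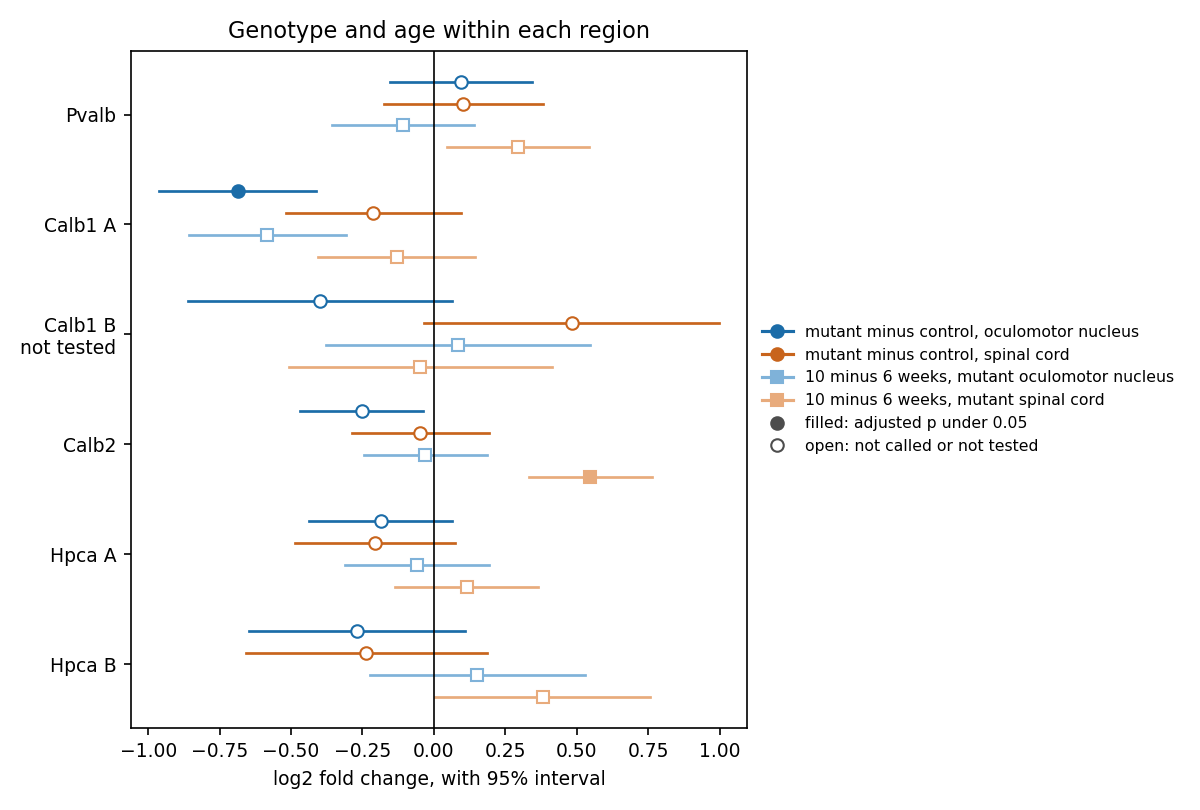
Log2 fold changes of each member probe set between mutants and controls of 10 weeks and between 10 and 6 weeks in mutants, in OMN and in spinal cord; lines are 95% intervals and filled symbols are called. The filled symbols are Calb1 A between mutant and control OMN (-0.69) and Calb2 between 10 and 6 weeks in mutant spinal cord (0.55).

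Among themselves the members did not vary as 1 group. Over the 9 OMN arrays, Calb1 A and Calb2 had a Pearson r of 0.72, and both Hpca probe sets had 0.78. Pvalb had -0.37 with Calb2 and 0.06 with Calb1 A there. Over the 8 spinal cord arrays, Calb2 had 0.64 with Pvalb and 0.74 with each Hpca probe set, but -0.16 with Calb1 A. The pair of Hpca probe sets had 0.40 in spinal cord, and the pair of Calb1 probe sets had 0.48 in OMN and -0.12 in spinal cord. Arrays of a region share their groups, so these values, which are log2 signals across arrays, describe group differences as well as scatter.

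Over the 17 arrays, the genes whose log2 signal ran most closely with each member were sought among tested probe sets with 1 symbol. For Calb1 A they were Cbln1 (r = 0.86), Hivep2 (0.85), the NMDA receptor subunit gene Grin2c (0.84), Cdc5l (0.84) and the neuropeptide gene Cck (0.83). After subtraction of each region's mean, Sh3d19 (0.86), the growth factor gene Kitl (0.86), Anxa2 (0.83), a second probe set of Cbln1 (0.78) and Cldn10 (0.78) came first, so that Cbln1 was in both orders. For Calb2 they were Acin1 (0.94), Cyhr1 (0.94), Chkb (0.93), Rnf112 (0.92) and Rnps1 (0.92), and Acin1, Cyhr1, Chkb and Rnf112 were again among the first 5 within regions, with 0.88, 0.88, 0.90 and 0.87. Acin1 and Rnps1 encode proteins of RNA splicing, and Chkb makes a membrane lipid precursor.

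For Hpca A the closest were the kinase gene Matk (0.95), Rab3a, a GTPase of synaptic vesicles (0.94), Ptprn, a protein of dense core vesicles (0.94), the mitochondrial channel gene Vdac1 (0.94) and Sfxn1 (0.94), and Matk was again among the first 5 within regions (0.82). For Hpca B they were Thoc1 (0.84), the kinesin gene Kif3a (0.84), Cul2 (0.83), Rpn2 (0.82) and Zranb1 (0.81), none of them shared with the other Hpca probe set. For Pvalb they were the gap junction gene Gja1 (0.79), Adi1 (0.79), Rnaseh2c (0.79), Gstm1 (0.79) and Ctse (0.79), and Gstm1 was again among the first 5 within regions (0.84). These are correlations over arrays that share tissue and groups.

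The other EF-hand genes set the members in context. Of 42 genes in a list of neuronal calcium sensors and other EF-hand proteins, 33 were measured and 29 tested. Averaged over conditions, 6 were called higher and 14 lower in OMN, where 20% of all tested probe sets were called higher and 17.7% lower, with a median of -0.16 beside 0.02 over all. Lower in OMN were several S100 genes, which encode small EF-hand proteins, some of them abundant in glia: S100a6 had -2.01 ± 0.09, S100b, known from astrocytes and oligodendrocytes, -1.10 ± 0.06 and S100a16 -0.76 ± 0.05, all called. Summed signals of 5 astrocyte markers were 5316 to 7220 on OMN arrays and 13012 to 17415 on spinal cord arrays. These markers differed in direction: by mean over conditions Gfap (-2.21), Aqp4 (-0.88) and Slc1a2 (-0.62) were called lower in OMN. Slc1a3 was called higher (0.76), as in each condition, and Aldh1l1 was not called (-0.04). The part of such cells in the S100 differences was not tested. On the higher side stood Ncald, a sensor closely related to hippocalcin (0.76 ± 0.06), and Kcnip4, a subunit of potassium channels (0.79 ± 0.09), the 2 of 29 genes of the list called higher in all 3 conditions, as were 3.07% of all tested probe sets. Called lower in all 3 were 7 of the 29, namely Cabp1, Efhd1, S100a1, S100a6, S100a13, S100a16 and S100b, as were 4.4% of all. Calb1, Calb2 and both Hpca probe sets, with 0.36 to 0.48, lay below these and among the called genes on the higher side.

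**Figure D5:**
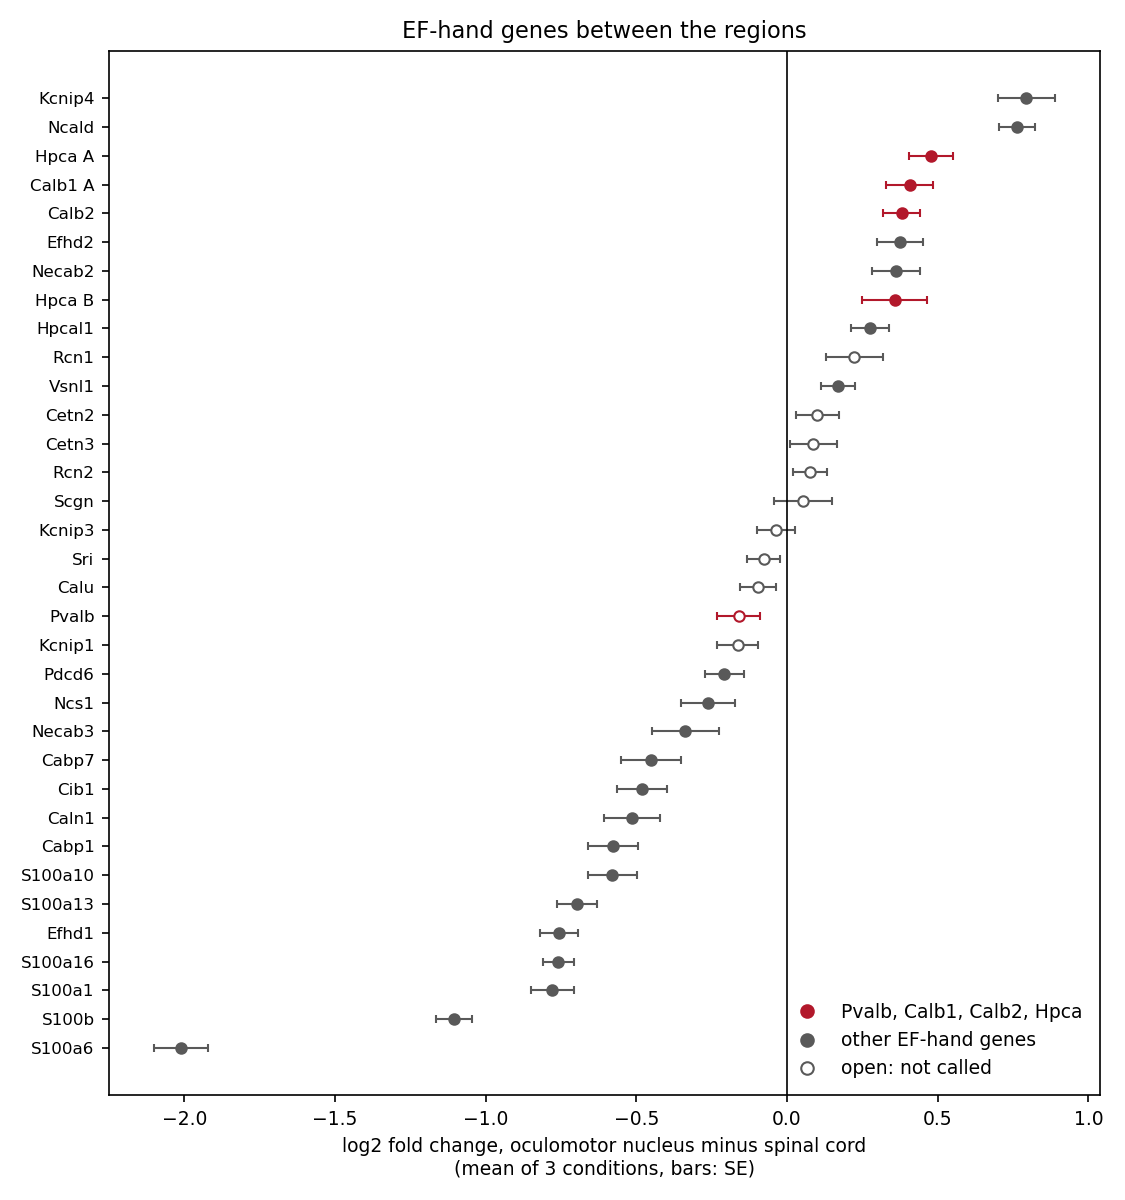
OMN minus spinal cord difference (log2 fold change, mean of 3 conditions, bars SE) of the 5 tested member probe sets and the 29 tested genes of the EF-hand list, in order of size; filled points are called. Members run from -0.16 (Pvalb) to 0.48 (Hpca A), and S100a6 lies at -2.01.

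The calls among genes that move calcium across membranes were near the share over all probe sets. Of 31 calcium pumps, exchangers and store proteins, 22 were measured and 18 tested, and by mean over conditions 3 were called higher and 4 lower in OMN (16.7% and 22.2% of those tested, beside 20% and 17.7% of all; median 0.04). Slc8a1, a sodium-calcium exchanger, had 0.47 ± 0.08, and Slc24a3, an exchanger that also carries potassium, 0.43 ± 0.08. Itpr3, a calcium release channel of the endoplasmic reticulum, had -0.98 ± 0.12 and was called lower in all 3 conditions. Of 37 genes for calmodulin and calcium-dependent effectors, 33 were measured and 28 tested, and 11 were called higher and 5 lower (39.3% and 17.9%; median 0.06). Gap43, a calmodulin-binding growth cone protein, had 1.36 ± 0.05, Pcp4, a small regulator of calmodulin, 0.91 ± 0.10, and the neuronal nitric oxide synthase gene Nos1 0.54 ± 0.06, while the kinase gene Camk1d had -0.72 ± 0.07.

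Within regions, calls in these lists were few, as they were over all probe sets. Between mutants and controls in OMN, 1 of the 75 list genes tested was called in limma, Nos1 (0.52 ± 0.11, adjusted p = 0.0197), and 9 had an unadjusted p under 0.05. These are shares of 1.33% and 12%, beside 1.47% and 14.9% of all tested probe sets. In spinal cord limma called 0 of 75 and 8 had an unadjusted p under 0.05 (10.7%, beside 11.7% of all). Between 10 and 6 weeks in mutant OMN, limma called 0 of 75 and 11 had an unadjusted p under 0.05 (14.7%, beside 8.82% of all). In mutant spinal cord 2 were called, Cabp7, a calcium sensor of the calmodulin family (0.76 ± 0.17, adjusted p = 0.0230), and Marcks, a protein kinase C substrate that binds calmodulin (-0.37 ± 0.10, adjusted p = 0.0462), with 14 under 0.05 before adjustment. These are shares of 2.67% and 18.7%, beside 2.76% and 20.2% of all. Calb1 was the gene called lower in OMN of 10-week mutants among the members and these lists, and Cabp7 accompanied Calb2 among those called higher with age in spinal cord.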

How the data were processed

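Total RNA was hybridised to Mouse Expression Set 430A arrays. The deposited values are linear intensity signals, made by the authors with Affymetrix Microarray Suite 5.0 per the series' design text. Each used array's 2% trimmed mean was 500.13 to 500.16, so signals were scaled per array. Of 22690 probe sets, 64 controls were removed, 25 was added to the signals and log2 taken. A filter on mean log2 signal dropped the lowest 40% (limit 7.38) and kept 13575. Group means were fitted over 17 arrays in limma 3.58.1 (R 4.3.3; eBayes with a trend, 11 residual degrees of freedom), with Benjamini-Hochberg adjustment in each of 10 contrasts. Control spinal cord replicate 1 was left out for its correlation with the other arrays.

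Symbols came from the array's annotation, updated by gene identifier. List genes are represented by their probe set with the highest mean signal. Named are all members; of each list, up to 4 genes with the smallest p per contrast and those called for genotype or age; and the 5 genes most correlated with each member. Kcnip4 was chosen after its values were seen. Members and lists were chosen with earlier results of these data known. The steps were tested on simulated data. The alternatives are given in the closing section. After each group's mean was subtracted, same-numbered replicates of different groups correlated at -0.10 to 0.13 across tested probe sets. They were not treated as pairs.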

Additional observations from a re-analysis of the deposited data

Results flagged for a closer look

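One value stood out in data that the comparisons do not use. On control spinal cord replicate 1, the array left out, Calb1 B had a signal of 685.2, while the highest of the control arrays used read 139.8 and the control spinal cord arrays used read 26.1 and 49.7. That array's correlation with the others across probe sets was 0.0104 to 0.0143, so its value for a given probe set is not read as a level of that gene.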

How the results depend on the processing

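Member calls of 10-week mutants (1 between regions), 6-week mutants (3), controls (1), their mean (4), genotype in OMN (1) and age in spinal cord (1) depended on the threshold and the arrays. With a 2-fold threshold all 6 counts were 0. By a rule of the submitters' kind they were 0 in 10-week mutants, 6-week mutants, genotype in OMN and age in spinal cord, and the 1 in controls was Calb1 B. With all 18 arrays the mean gave 1 and the other 5 gave 0. Quantile normalization gave 2 in 10-week mutants, the added one being Pvalb lower in OMN, and 3 in controls. Controls gave 2 with no filter, a 60% filter, an offset of 100, a replicate block, and without the pair of arrays rich in pituitary hormone RNA, where 10-week mutants gave 0 and the mean gave 5, with Pvalb lower. The 6-week count was 4, with Hpca B added, under a replicate block, a 60% filter, signals floored at 25 and the groups of the contrast alone. Groups of the contrast alone gave 0 for age in spinal cord. Leaving out 1 array at a time gave 0 to 2 in 10-week mutants, 3 to 4 in 6-week mutants, 0 to 2 in controls, 3 to 5 for the mean, 0 to 1 for genotype in OMN, and 1 for age in spinal cord; a lone control spinal cord array was then assumed to vary like the other groups. Same-numbered replicates share only a number. With group means subtracted, 8 of 17 arrays correlated best, on average over other groups, with their own number. The replicate block changed no count but those of controls and 6-week mutants.

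Changes of sign were all in values that were not called. With all 18 arrays they were Pvalb between regions in controls (0.12), Calb1 A (0.95), Calb2 (1.69) and Hpca B (0.59) for genotype in spinal cord, and Hpca A (-0.086) for genotype by region; Calb1 B, untested, had -0.69 in place of 0.48 for genotype in spinal cord and 0.29 in place of -0.88 for genotype by region. The other changes for genotype by region were Pvalb 0.052 and Hpca B 0.026 with median centring, Hpca B 0.00092 and Hpca A -0.0090 with quantile normalization, and Hpca B 0.087 without both hormone arrays. Leaving out arrays gave -0.10 to 0.061 for Pvalb, -0.31 to 0.15 for Hpca B and -0.11 to 0.11 for Hpca A there, -0.092 to 0.054 for Calb2 with age in OMN and -0.13 to 0.034 for Calb2 with genotype in spinal cord. Calb1 B also changed sign with age on leaving out 1 array, in each region and between them, with values within 0.17 of 0. The cause was not tested. Calb1 B had low signals, and its regional difference in controls moved with the offset: 1.31 in the main setting, 0.73 with an offset of 100 and 1.83 with signals floored at 25.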
